A study of Caenorhabditis elegans with 9 samples.

Results

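The 10 genes followed here were chosen as Argonautes of secondary small RNAs in the Caenorhabditis elegans germ line. They were read over all arrays of a comparison of Piwi mutants with wild type. They are wago-1, wago-2, wago-4, wago-5, wago-10, wago-11, hrde-1, csr-1, ppw-2 and vsra-1, and were taken as every probe set whose annotated symbol is exactly one of these names. Of these, the reference annotation lists wago-2 and wago-11 as pseudogenes. The rule gave 14 probe sets for 10 genes, of 20766 probe sets for 17118 genes on the array that name a single gene. Messenger RNA of whole animals labelled as young adults was measured on 9 arrays. Of these, 3 held N2, the wild-type laboratory strain, 3 held the double mutant MT14769, and 3 held the double mutant SX9. In MT14769 the Piwi gene prg-1 has allele n4357 while its relative prg-2 has n4358, and in SX9 these alleles are n4503 for prg-1 with nDf57 for prg-2. The reference annotation lists prg-2 as a pseudogene too. Both mutant strains carry their alleles in every tissue, and no group carries a mutation in only one Piwi gene or a rescue. The labels state no batch and no separate cultures, so the p-values measure the spread between these samples, which may be technical. Values are RMA levels on the log2 scale. With 3 arrays per group, the number of arrays limits the precision of every value.

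Argonautes are proteins that hold a small RNA and use it to find a matching messenger. In the worm germ line, a piRNA held by the Piwi protein PRG-1 marks a target, and RNA-directed RNA polymerases then copy secondary small RNAs from that target. Worm-specific Argonautes, the WAGO proteins, load these copies and silence the target in the cytoplasm or, through HRDE-1, in the nucleus, where the silent state can be inherited. CSR-1 loads secondary small RNAs against genes that are expressed in the germ line and is known for protecting them from silencing and for chromosome segregation. The comparison asks whether messenger levels of this second tier differ when the Piwi tier above it is mutated.

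The arrays differed inside each genotype, which bears on every value below. The mean of 29 moulting genes, each relative to its own mean over the 9 arrays, lay between -0.65 and -0.45 log2 on N2 replicate 2, MT14769 replicate 3 and SX9 replicate 1, and between 0.13 and 0.50 on the other 6 arrays. On MT14769 replicate 3 the 32 control probe sets for bacterial and yeast transcripts, which lie near the low end of the scale, averaged 3.77 log2, against 3.31 to 3.48 on the other 8 arrays. The 18 hybridisation control probe sets averaged 9.89 to 10.05 log2 for N2, 9.41 to 9.64 for MT14769 and 9.36 to 10.17 for SX9. The mutated genes did not check the labels. The prg-1 probe set gave 5.40 to 7.94 log2 and the prg-2 probe set 5.46 to 6.53 over the 9 arrays. prg-1 averaged 6.16 for N2, 6.72 for MT14769 and 7.10 for SX9, and prg-2 averaged 6.29, 5.87 and 6.03. For both genes the mutant mean against wild type had a limma adjusted p of 0.999. The suffix of the prg-1 probe set marks a design that may also bind transcripts of other genes. No source used here says where the probes of prg-1 and prg-2 lie relative to the mutated parts.

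Among the 10 genes, wago-1, ppw-2 and wago-2 had the highest mutant means relative to wild type, but their arrays overlapped between genotypes. wago-1, a WAGO protein of the perinuclear P granules, read 6.16, 5.21 and 4.78 log2 on the N2 arrays, 6.85, 6.17 and 5.28 on those of MT14769, and 5.99, 6.11 and 5.82 on those of SX9, each in replicate order. The 3 arrays of SX9 lay close together, while N2 replicate 1 was as high as the mutants and MT14769 replicate 3 was as low as the other wild-type arrays. For wago-1, N2 averaged 5.38 ± 0.71 log2, MT14769 averaged 6.10 ± 0.79 and SX9 averaged 5.97 ± 0.15 (SD, n = 3 each). The mean of both mutants stood 0.65 log2 above wild type for wago-1, 1.57-fold (SE 0.37; 95% interval -0.20 to 1.51), with a limma p of 0.999 after adjustment over all 22548 probe sets tested.

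ppw-2, also known as WAGO-3, an Argonaute of both the maternal and the paternal germ line, followed the same arrays. Its probe set gave 5.68, 4.69 and 4.74 log2 for N2, 6.54, 5.99 and 4.66 for MT14769, and 5.85, 5.69 and 5.54 for SX9. Again 3 arrays were low, N2 replicates 2 and 3 and MT14769 replicate 3, and the other 6 lay above a gap of 0.80 log2. N2 averaged 5.04 ± 0.56 log2, MT14769 averaged 5.73 ± 0.97 and SX9 averaged 5.69 ± 0.16 (SD, n = 3 each). The mutant mean of ppw-2 exceeded wild type by 0.68 log2, 1.6-fold (SE 0.40; limma adjusted p = 0.999). The suffix of the ppw-2 probe set marks a design that may also bind transcripts of other genes.

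wago-2, which the reference annotation lists as a pseudogene, had a smaller range. It read 4.83, 4.39 and 4.38 log2 for N2, 5.36, 5.0 and 4.79 for MT14769, and 4.82, 4.87 and 4.60 for SX9. Only the highest wild-type array reached the range of the mutants. Its mutant mean lay 0.37 log2 above wild type, 1.29-fold (SE 0.16; 95% interval 0.01 to 0.73), with a limma adjusted p of 0.999. In MT14769 alone the wago-2 difference was 0.51 (SE 0.18; limma adjusted p = 0.883), and in SX9 alone it was 0.23 (SE 0.18; limma adjusted p = 1).

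The size of the wago-1 and ppw-2 differences depended on single arrays. For wago-2 the difference of the mutant mean stayed between 0.29 and 0.52 with any single array left out. Without N2 replicate 1 the difference between the mutant mean and wild type was 1.04 log2 for wago-1 and 1.0 for ppw-2, while without N2 replicate 3 that of wago-1 was 0.35. In MT14769 alone, the wago-1 difference of 0.72 was 0.34 without replicate 1 of that strain and 1.12 without replicate 3, and the ppw-2 difference of 0.70 was 0.29 and 1.23. On the 6 arrays with high moulting genes the differences of the mutant mean were 0.76 for wago-1, 0.73 for ppw-2 and 0.35 for wago-2. None of these values passed the threshold after adjustment.

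**Figure D1:**
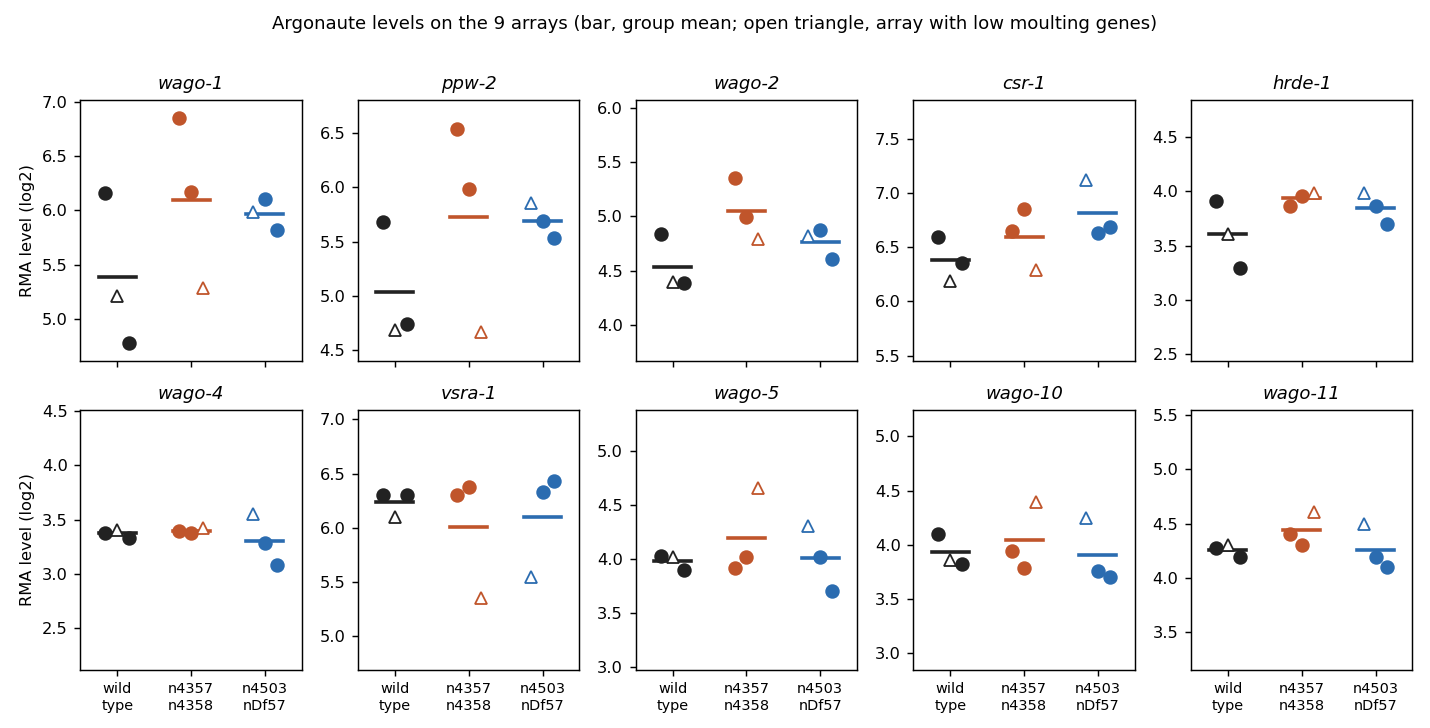
Levels of the 10 Argonautes (RMA, log2) by genotype (wild type, N2; n4357 n4358, MT14769; n4503 nDf57, SX9), 1 panel per gene with a vertical span of the same size, for the probe set with the highest mean of each gene. Points are arrays, bars are group means, and open triangles mark the 3 arrays with low moulting genes. wago-1 and ppw-2 have the widest spread, from 4.78 to 6.85 and from 4.66 to 6.54, and in vsra-1 the lowest values, 5.35 and 5.55, belong to arrays with low moulting genes.

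wago-1 and ppw-2 were the most variable of the Argonautes. Their ranges over the 9 arrays were 2.07 and 1.88 log2, 4.2-fold and 3.68-fold, and 3.77% and 4.94% of all probe sets had a range at least as large. The median range of all probe sets was 0.63 log2. Since ppw-2 fell into separate clusters of arrays, no correlation over all 9 is given. Within the 6 arrays above the gap, Pearson's r was 0.93 between wago-1 and ppw-2 (Spearman's rho 0.77; exact permutation p = 0.0250 and 0.103), 0.97 between wago-1 and wago-2 (rho 0.94; exact permutation p = 0.00556 and 0.0167), and 0.96 between wago-2 and ppw-2 (rho 0.83; exact permutation p = 0.00694 and 0.0583). After Benjamini-Hochberg adjustment over the 90 relations computed, namely 45 pairs of Argonautes in 2 sets of 6 arrays, these Pearson p-values were 0.205, 0.1 and 0.104. Without the 2 arrays farthest from the median of the first gene named in each pair, r over the 4 arrays left was -0.06, 0.58 and 0.70. The first relation therefore rests on the arrays left out. Within the other set, the 6 arrays with high moulting genes, r was 0.98, 0.94 and 0.97 for the same pairs (rho 0.94, 0.94 and 1; exact permutation p of r = 0.00278, 0.0125 and 0.00556), with adjusted permutation p-values of 0.1, 0.161 and 0.1, and 0.72, 0.92 and 0.91 over the 4 arrays left. That set includes N2 replicate 3, whose ppw-2 level of 4.74 lies below the gap, so its r values span the gap. None of the 90 relations had an adjusted p under 0.05. These genes are related in sequence, and whether their probe sets tell them apart was not tested, since probe sequences were not used here.

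**Figure D2:**
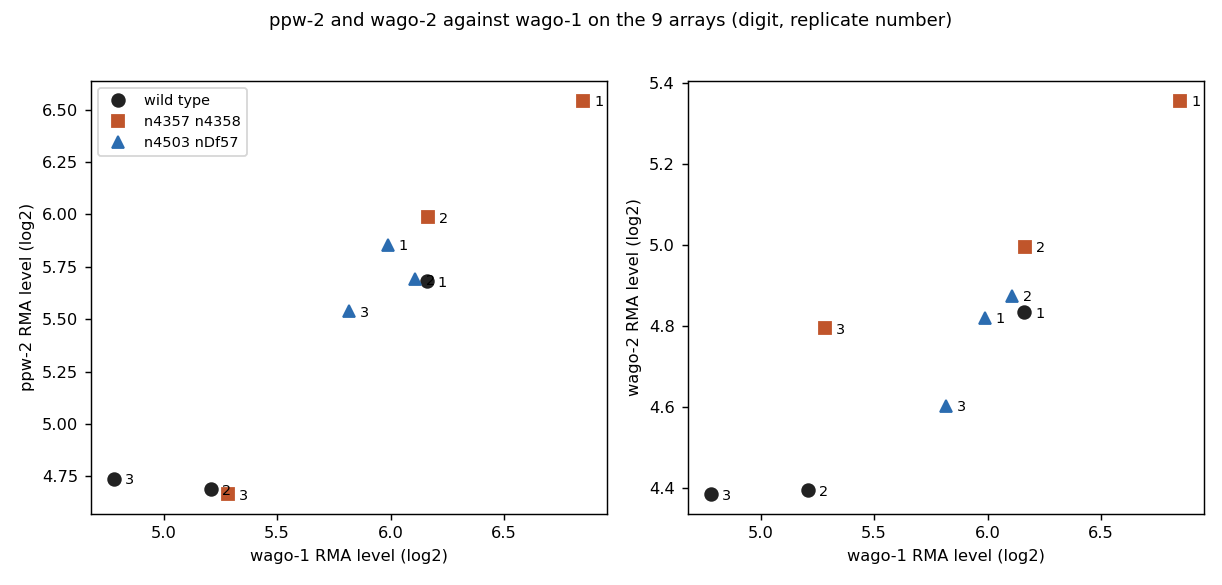
ppw-2 (left) and wago-2 (right) against wago-1, RMA levels in log2, 1 point per array, with the shape giving the genotype and the digit the replicate. Wild-type replicates 2 and 3 and n4357 n4358 replicate 3 sit apart at ppw-2 levels of 4.66 to 4.74, and n4357 n4358 replicate 1 is highest in all 3 genes.

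Markers of germ line and gut also differed between these arrays. The mean of 28 meiotic germ line genes, out of 30 listed, of which 5 lay below the 30th percentile of mean level, ran from -0.13 to 0.15 log2 for N2, -0.44 to 0.30 for MT14769 and -0.07 to 0.14 for SX9. It was below 0 on the 3 arrays where ppw-2 was low and on SX9 replicate 1. The 5 measured vitellogenins, yolk proteins made in the adult intestine, of which 1 lay below that percentile, averaged -0.57, 1.42 and 0.87 for N2, -0.74, -0.33 and 0.17 for MT14769, and 0.59, -0.69 and -0.72 for SX9. The 26 oocyte and eggshell genes, 1 of them below it, ran from -0.19 to 0.21 for N2, -0.03 to 0.18 for MT14769 and -0.30 to 0.19 for SX9. On the arrays where ppw-2 was low, N2 replicates 2 and 3 and MT14769 replicate 3, they averaged 0.21, -0.19 and -0.03. The 25 measured sperm genes averaged 0.30, 0.03 and 0.25 there, so the germ line lists did not share the direction of the meiotic genes. Their part in the Argonaute levels was not tested. In RNA of whole animals, fewer germ cells and less RNA per germ cell cannot be told apart.

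csr-1 was the only one of the 10 genes whose arrays did not overlap between a mutant strain and wild type. It read 6.60, 6.19 and 6.36 log2 for N2, 6.65, 6.85 and 6.29 for MT14769, and 7.12, 6.63 and 6.68 for SX9. All arrays of SX9 lay above the highest wild-type array, by a margin set by replicate 2 of the mutant. For csr-1, N2 averaged 6.38 ± 0.21 log2, MT14769 averaged 6.60 ± 0.29 and SX9 averaged 6.81 ± 0.27 (SD, n = 3 each). The difference of SX9 from wild type was 0.43, 1.35-fold (SE 0.19; 95% interval -0.01 to 0.87; limma adjusted p = 1). The csr-1 probe set was 1 of 14 without overlap, against 6.58% of all probe sets in either direction and 4.02% in this one. Without SX9 replicate 1, the highest csr-1 array, the difference was 0.28, and inside the 6 arrays with high moulting genes it was 0.18.

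The nuclear Argonaute hrde-1, needed for silencing to pass between generations, has 3 probe sets, all with mean levels below the 30th percentile of the array, 3.90 log2. The one with the highest mean read 3.91, 3.61 and 3.29 log2 for N2, 3.87, 3.96 and 3.99 for MT14769, and 3.98, 3.87 and 3.70 for SX9. The lower wild-type arrays lay under all mutant arrays and N2 replicate 1 lay among them. Its mutant mean was 0.29 log2 above wild type (SE 0.14; limma adjusted p = 0.999), 0.13 without N2 replicate 3 and 0.44 without N2 replicate 1. The other hrde-1 probe sets had differences of 0.05 (SE 0.08) and -0.05 (SE 0.14), both within their SE, and the latter was 0.04 without MT14769 replicate 3 or without N2 replicate 1.

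wago-4, a cytoplasmic Argonaute of inherited silencing, was likewise near the low end by its own probe set, with averages of 3.37 ± 0.04 log2 for N2, 3.40 ± 0.02 for MT14769 and 3.30 ± 0.23 for SX9 (SD, n = 3 each). Its mutant mean differed from wild type by -0.02 log2 (SE 0.11; limma adjusted p = 0.999). A further probe set, annotated to wago-4 and C06A1.4 together and so left out of the rule, read from 5.02 to 5.57 log2 for N2, 5.44 to 5.69 for MT14769 and 5.19 to 5.46 for SX9.

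wago-5, wago-10 and wago-11 were highest on the same pair of arrays, MT14769 replicate 3 and SX9 replicate 1. WAGO-10 is known from sperm formation, and wago-11 is listed as a pseudogene. The wago-5 probe set with the highest mean read 4.03, 4.02 and 3.90 log2 for N2, 3.92, 4.02 and 4.65 for MT14769, and 4.30, 4.02 and 3.70 for SX9. For wago-10 the values were 4.10, 3.86 and 3.83 for N2, 3.94, 3.79 and 4.39 for MT14769, and 4.25, 3.75 and 3.71 for SX9. Outside that pair of arrays, neither gene read above 4.10 log2.

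wago-11 read 4.28, 4.30 and 4.19 log2 for N2, 4.40, 4.30 and 4.61 for MT14769, and 4.49, 4.19 and 4.10 for SX9. Of the remaining wago-5 probe sets, both below the 30th percentile, one was at 4.06 on MT14769 replicate 3 and between 3.09 and 3.25 on the other arrays, and the other stayed between 2.92 and 3.32. The array on which wago-5, wago-10 and wago-11 peaked is the one with the highest bacterial and yeast controls, 3.77 log2, and the next highest array, SX9 replicate 1, had the next highest controls, 3.48. The part of the controls in these levels was not tested beyond the covariate fits given below. Mutant means differed from wild type by 0.12 for wago-5 (SE 0.19), 0.04 for wago-10 (SE 0.17) and 0.09 for wago-11 (SE 0.11), each with a limma adjusted p of 0.999. Without MT14769 replicate 3 they were 0.01 for wago-5, -0.05 for wago-10 and 0.05 for wago-11, which was 0.04 without SX9 replicate 1. Inside the 6 arrays with high moulting genes they were -0.05, -0.17 and 0.02. The 25 measured sperm genes, relative to their own means, averaged 0.03 to 0.30 log2 for N2, -0.37 to 0.25 for MT14769 and -0.34 to 0.10 for SX9, and their part in wago-10 was not tested.

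vsra-1, named as an Argonaute of versatile small RNA binding, had the opposite pattern. It read 6.30, 6.10 and 6.30 log2 for N2, 6.30, 6.38 and 5.35 for MT14769, and 5.55, 6.33 and 6.43 for SX9. The arrays MT14769 replicate 3 and SX9 replicate 1 were low, N2 replicate 2 was slightly low, and the other 6 lay within 6.30 to 6.43. Its mutant mean differed by -0.18 log2 from wild type (SE 0.27; limma adjusted p = 0.999), -0.01 without MT14769 replicate 3 and 0.06 on the 6 arrays with high moulting genes.

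Over the 10 genes, 8 had a positive and 2 a negative difference between the mutant mean and wild type, with a median of 0.20 log2. The median of all probe sets was 0.02, and 56.5% of them were positive. After adjustment 0 of 14 Argonaute probe sets passed, as did 0% of all 22548. At an unadjusted limma p under 0.05 there was 1 of 14, wago-2, against 3.61% of all probe sets. Of the 14, 0 had groups that did not overlap in this comparison, against 1.85% of all. Intervals were wide for wago-1 and ppw-2, where a difference of 1 log2 lies inside them.

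Each strain was also compared with wild type alone. In MT14769 the 10 genes had 9 positive differences, against 54.1% of all probe sets, and a median of 0.21, with 0 of 14 probe sets called (0% of all), 1 of 14 at an unadjusted p under 0.05 (3.99% of all) and 0 of 14 without overlap (9.06% of all). In SX9 there were 7 positive differences, against 54.9% of all, and a median of 0.13, with 0 of 14 called (0% of all) 0 of 14 at an unadjusted p under 0.05 (2.83% of all) and csr-1 without overlap, as given above. Both comparisons use the same wild-type arrays. Set against each other, SX9 minus MT14769 was positive in 2 of the 10 genes (50% of all probe sets) and had a median of -0.11. Of the 14 probe sets, 0 were without overlap (5.49% of all), and 0 of 14 probe sets passed limma's adjusted test (0% of all) or an unadjusted p under 0.05 (2.47% of all). The strain difference was -0.28 for wago-2 (SE 0.18; 95% interval -0.70 to 0.13) and 0.22 for csr-1 (SE 0.19; 95% interval -0.22 to 0.66). Without MT14769 replicate 1 that of wago-2 was -0.13. For csr-1 it was 0.06 without MT14769 replicate 3, 0.06 without SX9 replicate 1, and -0.09 inside the 6 arrays with high moulting genes.

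**Figure D3:**
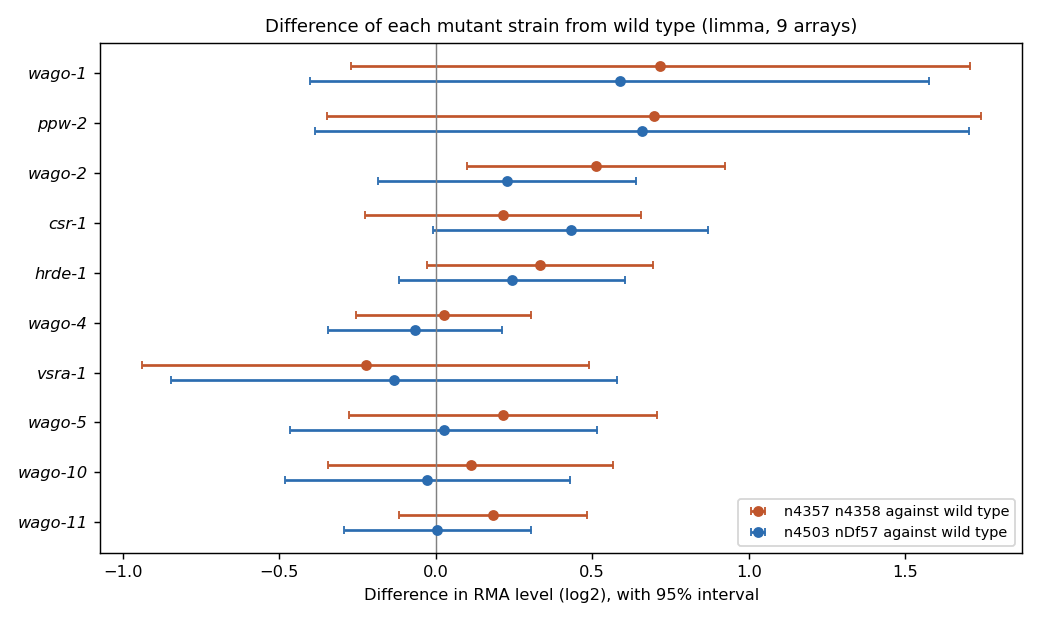
Difference of each mutant strain from wild type for the 10 Argonautes (log2), with 95% intervals from limma over 9 arrays. wago-2 in n4357 n4358, at 0.51, is the one interval that leaves out 0, and it did not pass after adjustment over all probe sets.

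The timing of the arrays was then read from the moulting genes. With the moulting gene mean as a term beside the genotype means, the slope gives the change in a level, in log2, for a rise of 1 log2 in that mean. Of all probe sets 3175, or 14.1%, passed limma's adjusted threshold of 0.05, 9.06% with a positive and 5.02% with a negative slope. Among the Argonautes 1 of 14 passed, vsra-1, with a slope of 0.76 (SE 0.15; limma adjusted p = 0.0207). That is a share below the background of all probe sets. Of the 10 genes 5 had a positive slope (43.4% of all probe sets), and 4 had an unadjusted limma p under 0.05 (35% of all).

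The vsra-1 call depended on which arrays entered the fit. The slope was 0.19 (limma adjusted p = 0.739) without the 2 arrays farthest from the median and -0.25 (limma adjusted p = 1) inside the 6 arrays with high moulting genes. Inside those 6 arrays the moulting mean was 0.30 and 0.29 for N2, 0.50 and 0.13 for MT14769, and 0.30 and 0.23 for SX9. Slopes inside them, here and below, therefore rest mostly on MT14769 replicates 1 and 2. With the bacterial and yeast controls as a further covariate the vsra-1 slope was 0.36 (limma adjusted p = 0.476). With any single array left out the slope stayed between 0.59 and 0.90. Its limma adjusted p was 0.108 without MT14769 replicate 3 (slope 0.59), 0.101 without SX9 replicate 1 (0.68), and 0.0518 and 0.0520 without SX9 replicate 2 (0.77) or 3 (0.72).

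Slopes of the other genes did not pass. wago-5 had -0.46 (SE 0.13; limma adjusted p = 0.0568), -0.30 without MT14769 replicate 3, and -0.07 with the bacterial and yeast controls as a covariate. It passed in the fit without N2 replicate 2 (-0.57, limma adjusted p = 0.0347). wago-10 had -0.35 (SE 0.15; limma adjusted p = 0.137) and wago-11 -0.24 (SE 0.09; limma adjusted p = 0.115), and inside the 6 arrays with high moulting genes both turned positive, at 0.46 and 0.32. Without the 2 arrays farthest from the median they were 0.19 and -0.02, and with the bacterial and yeast controls as a covariate -0.05 and -0.17. For ppw-2 and wago-1 the slopes were 0.78 (SE 0.36) and 0.65 (SE 0.36), with limma adjusted p-values of 0.159 and 0.227. Both turned negative, at -0.15 and -0.06, with the bacterial and yeast controls as a covariate. Inside the 6 arrays with high moulting genes they were larger, at 1.61 and 2.05. The csr-1 slope was 0.08 (SE 0.19), -0.18 without MT14769 replicate 3, 0.38 without SX9 replicate 1 and -0.51 inside the 6 arrays with high moulting genes, so its direction was not settled. That of hrde-1 was -0.11 (SE 0.15), and from -0.19 to -0.04 with single arrays left out. Since 2 arrays stood apart in vsra-1 and wago-5, no correlation over all 9 is given for them. Inside the 6 arrays with high moulting genes, r between vsra-1 and wago-5 was -0.61 (rho -0.44; exact permutation p = 0.175 and 0.386). Without the 2 arrays of that set farthest from its median of wago-5, r was 0.40, so its direction rests on those arrays. Inside the 6 arrays above the ppw-2 gap r was -0.83 (rho -0.74; exact permutation p = 0.0389 and 0.111), with an adjusted permutation p of 0.233 for r. That set includes SX9 replicate 1, which is among the 2 arrays that stood apart. Without its 2 arrays farthest from the median of wago-5, the same 4 arrays were left in both sets. The value of 0.40 there is therefore the same result, not a second one.

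**Figure D4:**
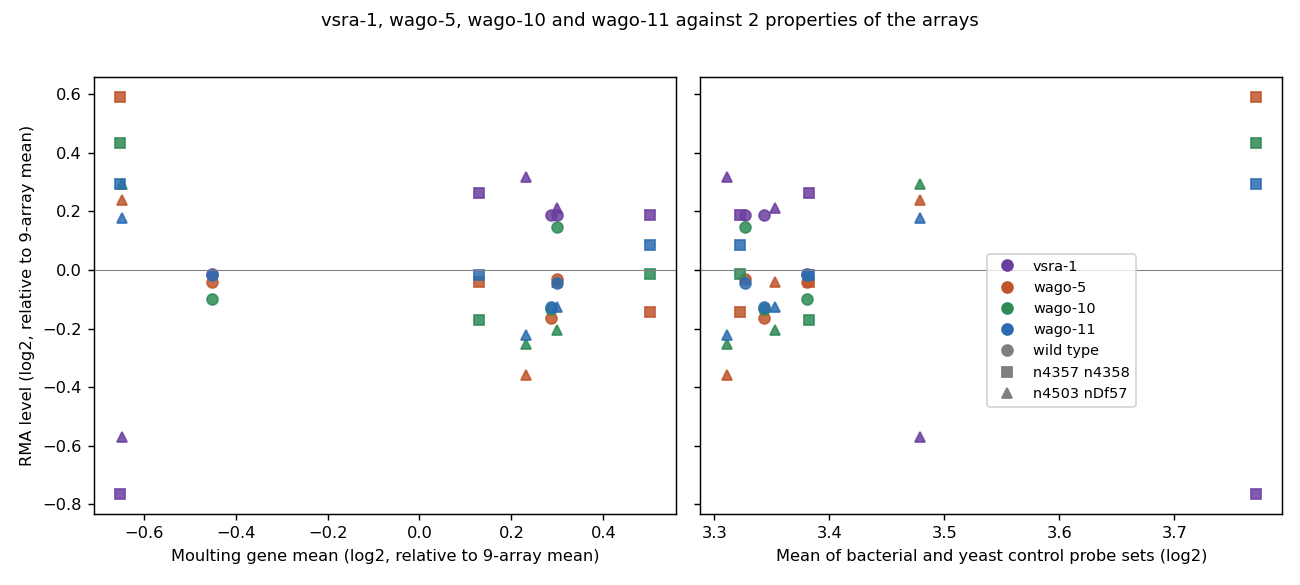
Levels of vsra-1, wago-5, wago-10 and wago-11 (RMA, log2, relative to the mean of the 9 arrays) against the moulting gene mean (left) and the mean of the bacterial and yeast control probe sets (right), both in log2. Colour gives the gene and shape the genotype. The array at a control mean of 3.77 holds the lowest vsra-1 value and the highest wago-5, wago-10 and wago-11 values, and the array at 3.48 comes next.

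The machinery that makes and uses secondary small RNAs was read from 39 measured genes, namely RNA-directed RNA polymerases, mutator proteins, nuclear and P granule cofactors and further Argonautes. For the mutant mean against wild type 56.5% of all probe sets were positive, with a median of 0.02, and 0% passed. Of the 39 genes 0 passed, with 22 positive and 17 negative differences and a median of 0.05. The 3 with the smallest p were sago-1, a WAGO protein of somatic RNA interference, at 0.33 log2 (SE 0.10), hrde-2, a factor of small RNA loading onto HRDE-1, at 0.33 (SE 0.14), and rde-10, an RNA interference factor, at 0.28 (SE 0.12), each with a limma adjusted p of 0.999. On the moulting gene mean 14 of 39 had an unadjusted limma p under 0.05, against 35% of all probe sets. After adjustment 6 of 39 passed, against 14.1% of all. With a negative slope 0 of 39 passed, against 5.02%, and with a positive slope 6 of 39, against 9.06%. They were the helicase drh-3 at 0.95 (SE 0.16; limma adjusted p = 0.0145), the polymerase rrf-1 at 1.29 (SE 0.26; limma adjusted p = 0.0221), the nuclear silencing factors nrde-4 at 0.96 (SE 0.22) and nrde-2 at 0.62 (SE 0.16), the nuclease rde-8 at 0.46 (SE 0.12) and the polymerase rrf-3 at 0.46 (SE 0.12). Of these 6, rrf-1, nrde-4, nrde-2 and rde-8 were read by probe sets with such suffixes. The 6 calls became 0 inside the 6 arrays with high moulting genes, without the 2 arrays farthest from the median, and with the bacterial and yeast controls as a covariate. They also became 0 without MT14769 replicate 3 or SX9 replicate 1, 1 without SX9 replicate 3, 2 without SX9 replicate 2 or N2 replicate 3, and 3 without MT14769 replicate 1 or 2.

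Likeness of pattern over the 9 arrays was described by Pearson's r against 17108 other genes, each by its probe set with the highest mean. All points share the 9 arrays and their timing. The nearest gene was ucr-2.3, a subunit gene of the respiratory chain's complex III, for wago-1 (r = 0.98), rmh-1 for wago-2 (0.98), set-18 for csr-1 (0.97) and F58G1.2 for hrde-1 (0.99). It was srbc-26 for wago-4 (0.99), cbs-2 for wago-10 (0.98) and F01G4.4 for wago-11 (0.98). Each is the highest of 17108 values over only 9 arrays. An r of at least 0.9 was reached by 54 genes for wago-1, 49 for wago-2, 9 for csr-1 and 29 for hrde-1. For wago-4, wago-10 and wago-11 it was reached by 75, 104 and 186 genes. srbc-26, at 3.08 to 3.50 log2, and rmh-1, at 3.35 to 3.82, stayed below the 30th percentile of mean level, 3.90, on every array. For ppw-2, wago-5 and vsra-1 no likeness is given, since some arrays stood apart. wago-1 was lowest on the arrays where ppw-2 was low, and wago-10 and wago-11 were highest on the arrays where wago-5 was. Their r values include those arrays. The mean of the 10 Argonautes, each relative to its own mean, was most like ucr-2.3, C56A3.8, lem-3, taf-12 and hpo-32, with r from 0.97 to 0.98. That mean includes ppw-2, wago-5 and vsra-1, and so the arrays that stood apart.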

How the data were processed

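The authors deposited log2 expression levels per probe set of the Affymetrix array, made with RMA, and also used limma, per the submitters' processing notes. The sources used here give no versions or further steps. RMA subtracts background, equalises array distributions and compresses low levels. Array medians lay between 4.76 and 4.83 log2, and arrays of one group differed by a median of 0.13 to 0.31 log2 per probe set. The highest of these differences, 0.31 and 0.29, were those of MT14769 replicate 3 from replicates 1 and 2 of its strain.

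Of 22625 probe sets, 77 controls were left out of the tests. All 9 arrays entered each limma fit (limma 3.58.1, R 4.3.3) with a mean per genotype, 6 residual and 2.38 prior degrees of freedom, or 5 and 2.99 with the moulting gene mean. Benjamini-Hochberg adjustment ran over 22548 probe sets. A gene is represented by its probe set with the highest mean. Probe sets were named from the platform annotation, and all 10 genes matched the reference gene table WBcel235. The fits were tested on simulated data. Tables came from Python 3.11.15 with pandas 2.3.3, and plots from matplotlib 3.10.9.

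The Argonautes, gene lists and tests were chosen with earlier results of these data known. Named genes are the 10 Argonautes, prg-1, prg-2, the 3 genes of the machinery list with the smallest p or those past the threshold, and the genes most alike. Alternatives were a replicate block, a filter at the 30th percentile, robust estimation with a variance trend, weights per array, cyclic loess, no shared probe sets, a threshold of 0.01, only the groups compared, the moulting mean as a covariate, only the 6 arrays with high moulting genes, no arrays far from its median, and each array left out. Covariates from bacterial and yeast controls and from hybridisation controls were added after seeing the data.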

Additional observations from a re-analysis of the deposited data

How the results depend on the processing

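In the 4 comparisons of genotypes, 0 Argonaute probe sets passed under any alternative. Counts over all probe sets, 0 in each, became 2, 4, 37 and 142 with array weights for the mutant mean, MT14769, SX9 and the strains against each other. They became 1 for the mutant mean and 1 for SX9 under cyclic loess, with the moulting mean and with the bacterial and yeast controls as a covariate, and 0 to 1 and 0 to 2 with single arrays left out. Of the 14 Argonaute differences, 7 changed sign under some alternative for the mutant mean, 7 for MT14769, 9 for SX9 and 11 for the strains against each other, none of them past the threshold, and 10 of the 14 slopes did. The slope count of 3175 became 491 at a threshold of 0.01, 2019 without shared probe sets, 1548 with the hybridisation controls, 1 with the bacterial and yeast controls, 0 inside the 6 arrays with high moulting genes, 0 without the 2 arrays farthest from the median, and 387 to 3617 with single arrays left out. The 1 Argonaute called there became 0 at 0.01, without shared probe sets (vsra-1 is read by one), inside the 6 arrays, without the 2 arrays and with the bacterial and yeast controls. It became 0 to 2 with single arrays left out. The 6 machinery genes called became 0 at 0.01, 2 without shared probe sets, 3 with the hybridisation controls, 0 with the bacterial and yeast controls, 0 inside the 6 arrays, 0 without the 2 arrays, and 0 to 6 with single arrays left out. The vsra-1 slope turned to -0.25 inside the 6 arrays. The causes were not tested. With the replicate number as a block, 2664 slopes and 2 Argonautes passed, ppw-2 (0.69, limma adjusted p = 0.0348) beside vsra-1, and 0 probe sets in the other comparisons. Deviations of the 9 pairs of arrays sharing a number were correlated from -0.60 to 0.40, 3 of them above 0.1. These correlations cannot decide whether the numbers pair samples, since arrays with low moulting genes bear a different number in each genotype. For the mutant mean, a fit of only the groups compared equals the fit of all arrays and was not run apart. Signal near the low end limits hrde-1 and wago-4. It also limits wago-5 and wago-10, with group means of 3.98 to 4.20 and 3.90 to 4.04 log2 beside a 30th percentile of 3.90.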
